A study of Mus musculus with 7 samples.

Results

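The genes described here are 39 regulators of mitosis, chromosome condensation and cytokinesis, chosen by symbol from a table of 23337 genes; kinesins and kinetochore genes were left out of the set. They were measured by RNA sequencing in mouse cardiomyocytes at postnatal day 6 (P6, 4 libraries, P6a to P6d) and postnatal day 30 (P30, 3 libraries, P30a to P30c). All animals carried a Rosa-Tom or Rosa-Cas9 allele and had received, on day 1, AAV9-cTNT-Cre, a virus in which the promoter of cardiac troponin T drives Cre recombinase. Cells were freed by collagenase perfusion and sorted by fluorescence. The allele of each mouse is not stated, nor whether each library is a different mouse. The p-values below therefore rest on variation among the libraries alone, some of which may be technical. One text of the labels gives collection at day 14, whereas the titles and age labels give day 6 or day 30, which were used. Age and time since the virus cannot be told apart.

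Cells enter mitosis when cyclin B binds the kinase Cdk1 and Cdc25 phosphatases activate the complex; Aurora and Polo-like kinases then build the spindle while topoisomerase II and the condensins compact the chromosomes. The anaphase-promoting complex (APC/C), a ubiquitin ligase switched on first by Cdc20 and later by Fzr1 (also called Cdh1), destroys securin and the cyclins, after which Ect2, Racgap1, Prc1 and Anln direct the cleavage of the cell. Mouse cardiomyocytes leave the cell cycle in the first weeks after birth, and many complete a last round of DNA synthesis and nuclear division without cytokinesis. Transcription of most of these genes peaks in late cell cycle under the MuvB complex with B-MYB (Mybl2) and FOXM1, and is held down outside the cycle by the DREAM complex.

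Most promoters of the set carry the letters through which these complexes and the factor NF-Y are known to act, and a selection is shown here for that reason. RefSeq windows (GRCm38.p6) of 250 bases before to 50 bases after the start site were found for 31 of the 39 genes. The cell cycle genes homology region, CHR, was searched as TTTGAA or TTCGAA and the NF-Y box as CCAAT, both on both strands. TTTGAA was present in 22 of 31 windows (71.0%), against 13.8% of 8970 tested genes with a window and 20.2% of 27025 genes in all. CCAAT was present in 24 (77.4%), against 43.2% of the tested genes. CCAAT together with TTTGAA or TTCGAA was present in 22 (71.0%), against 6.61%. The core GCGGGAA of E2F sites was found in 1 window, that of Ncapg, against 10.2% of the tested genes. The stretches below run from 150 bases before to 30 bases after the start site, 5′ to 3′, with these letters in capitals (ATTGG and TTCAAA are the same letters on the other strand).
Ccnb2 (chr9:70421525-70421704, minus strand): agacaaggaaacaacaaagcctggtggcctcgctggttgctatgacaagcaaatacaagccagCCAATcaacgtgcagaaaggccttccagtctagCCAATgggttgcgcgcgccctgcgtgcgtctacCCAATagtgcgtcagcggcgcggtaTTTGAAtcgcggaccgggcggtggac
Cdk1 (chr10:69352883-69353062, minus strand): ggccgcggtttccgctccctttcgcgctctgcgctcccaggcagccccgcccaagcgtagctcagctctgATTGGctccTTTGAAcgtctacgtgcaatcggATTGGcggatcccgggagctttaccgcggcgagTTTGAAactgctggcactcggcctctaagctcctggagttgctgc
Hmmr (chr11:40733408-40733587, minus strand): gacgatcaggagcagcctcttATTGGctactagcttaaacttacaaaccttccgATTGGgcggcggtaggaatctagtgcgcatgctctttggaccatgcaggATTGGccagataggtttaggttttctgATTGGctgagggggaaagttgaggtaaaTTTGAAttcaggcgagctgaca
Cdc20 (chr4:118437314-118437493, minus strand): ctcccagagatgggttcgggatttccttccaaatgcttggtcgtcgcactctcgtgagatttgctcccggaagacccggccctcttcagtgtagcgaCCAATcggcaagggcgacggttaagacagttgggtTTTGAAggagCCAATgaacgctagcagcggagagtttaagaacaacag
Ccnb1 (chr13:100786457-100786636, minus strand): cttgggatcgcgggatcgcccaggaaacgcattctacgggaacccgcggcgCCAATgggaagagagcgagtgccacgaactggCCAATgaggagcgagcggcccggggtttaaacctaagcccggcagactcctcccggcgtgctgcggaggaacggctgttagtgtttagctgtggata
Fzr1 (chr10:81378341-81378520, minus strand): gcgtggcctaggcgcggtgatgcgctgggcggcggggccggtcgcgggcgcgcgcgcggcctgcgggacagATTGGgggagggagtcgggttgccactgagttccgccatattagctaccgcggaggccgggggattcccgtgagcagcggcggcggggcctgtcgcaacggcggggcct
Ncapd2 (chr6:125191557-125191736, minus strand): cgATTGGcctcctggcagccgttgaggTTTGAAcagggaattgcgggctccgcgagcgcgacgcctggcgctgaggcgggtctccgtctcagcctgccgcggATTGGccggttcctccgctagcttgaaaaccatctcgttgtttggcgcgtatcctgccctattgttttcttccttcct

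In the Ccnb2 stretch the 3 CCAAT boxes begin at bases 64, 97 and 130, which is 33 bases apart each time, and TTTGAA begins at base 155. The Ccnb1 window holds CCAAT letters, 32 bases apart, but neither CHR spelling. These are matches of letters, and their absence says nothing about a factor: Birc5, Nusap1, Mybl2, Melk and Ncaph, all lower at P30, and Pttg1, which was not called, had neither motif in their windows. Ncapd2, also not called, had both. Ccna2, Cdc25c, Aurkb, Tpx2, Foxm1, Incenp, Pbk and Smc4 had no window.

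Library totals ran from 10594932 to 51427646 counts, and 3 counts stood for 0.0553 to 0.271 CPM (counts relative to library size, with TMM factors). One library stood apart for this set. P30c had the lowest CPM of the P30 libraries for 36 of the 39 genes, against 35.4% of 12561 tested genes. Where a median or single log2 fold change of these genes is described below, its value without P30c is therefore also given. For some genes, such as Ccnb2, Plk1 and Prc1, CPM is described and no log2 fold change. Cardiomyocyte markers were abundant throughout, with a summed CPM over 7 genes of 60297 to 71979 at P6 and 88111 to 90688 at P30. Of these 7 genes 3 were called higher at P30 and none lower, beside 26.3% higher and 27.8% lower over all tested genes. The largest part of the sum was Myh6, chosen after its values were seen. It had 26977 to 40316 CPM at P6 and 54701 to 58678 CPM at P30, so the rise of the sum is not a rise of every marker. Markers of other cells were also counted. The 7 endothelial genes were all higher at P30 (83.9 to 156 CPM summed at P6; 384, 540 and 267 CPM in P30a, P30b and P30c), as were the 6 immune genes (2.25 to 4.47 CPM at P6; 12.1, 39.6 and 16.6 CPM at P30) and 5 of 6 mural genes (351 to 526 CPM at P6; 571, 542 and 479 CPM at P30). Most of the mural sum was Abcc9, the gene of that list that was not called; over the other 5 genes, a split chosen after the values were seen, it was 26.8 to 51.8 CPM at P6 and 110.5, 141 and 74.4 CPM at P30. None of 6 fibroblast genes tested was called (125 to 339 CPM at P6; 127, 295 and 129 CPM at P30), 1 of 4 epicardial genes tested was lower (4.61 to 11.1 CPM at P6; 6.42 to 9.33 CPM at P30), and the erythroid sum was at most 1.33 CPM, with Hba-a1 and Hba-a2 at 0 in every library. The part of such cells in the results below was not tested. In bulk RNA, fewer cells that express a gene and less RNA of it per cell cannot be told apart.

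The comparison of P30 with P6 asked how much of the mitotic programme was still transcribed at the later age. All 39 genes passed the filter on low counts, 36 were lower at P30 and none was higher (quasi-likelihood test in edgeR, with p adjusted by Benjamini-Hochberg over 12561 genes and a threshold of 0.05). Of all tested genes 27.8% were lower, 26.3% higher and 54.1% changed in either direction. The 36 genes that fell did not overlap between the ages in any library; 28.8% of tested genes were lower without overlap, and 56.6% did not overlap in either direction. The median log2 fold change of the set was -4.06 (-3.64 without P30c), against -0.02 for all tested genes. The 3 genes that were not called were Fzr1, Pttg1 and Ncapd2. Summed over the 36 genes, the level was 727, 897, 1145 and 1001 CPM in P6a to P6d and 69.6, 89.8 and 26.3 CPM in P30a to P30c. The 3 uncalled genes made up 16.4% to 21.6% of the summed CPM of the set at P6 and 77.2%, 72.5% and 88.2% in P30a to P30c. The same 36 genes were lower under every scaling, filter and tool tried and with any single library left out; scaling by library totals, which moved the median log2 fold change of all tested genes to -0.20, added Ncapd2.

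**Figure D1:**
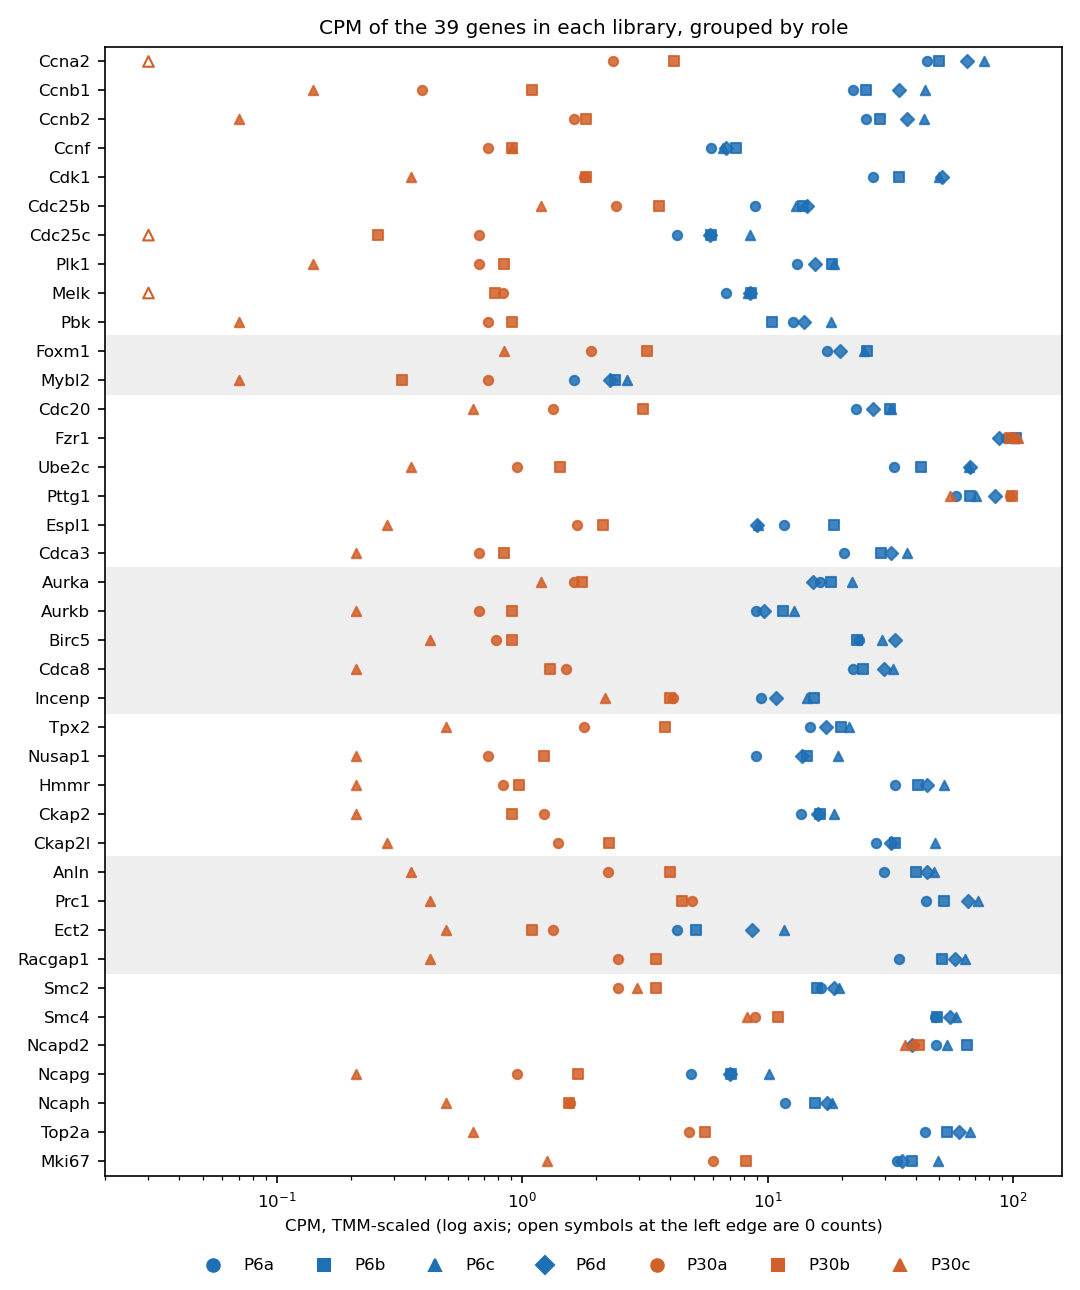
CPM of each of the 39 genes (rows, banded by role) in each of the 7 libraries on a log axis; blue symbols are P6 and orange symbols P30 libraries, and open symbols at the left edge mark 0 counts. The ages are apart for 36 genes, P30c (orange triangles) is mostly the lowest point, and Fzr1, Pttg1 and Ncapd2 overlap.

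The kinase engine of mitotic entry fell in all of its 10 genes, with a median log2 fold change of -4.65 (-4.14 without P30c). Ccnb1, the cyclin B that drives entry into mitosis (chromosome 13, 100778650 to 100786570, GRCm38), stood at 22.3, 25.1, 43.6 and 34.3 CPM in P6a to P6d and at 0.391, 1.10 and 0.140 CPM in P30a to P30c. Every P30 library was below every P6 library, and the log2 fold change was -5.83 ± 0.46 (SE, edgeR adjusted p = 1.1e-05), and ran from -6.79 without P30b, which held the most, to -5.43 without P30c. Its counts at P30 were 7, 17 and 2. Ccnb2, its paralog, went from 25.1, 28.6, 43.2 and 36.9 CPM to 1.62, 1.81 and 0.0701 CPM, the last being a single count. Cdk1, the kinase both cyclins bind, had 27.0 to 51.3 CPM at P6 and 1.79, 1.81 and 0.351 CPM at P30, a log2 fold change of -4.91 ± 0.42 (-4.50 without P30c).

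Ccna2, the cyclin A of S phase and early mitosis, had more counts than the B cyclins at P6, with 44.6, 49.9, 76.3 and 64.6 CPM. At P30 it had 2.34 and 4.14 CPM in P30a and P30b and 0 counts in P30c, which allows up to 0.210 CPM there. The log2 fold change was -4.74 ± 0.61, with -5.54 without P30b and -4.197 without P30c. Plk1, the Polo-like kinase that acts from entry to cytokinesis, went from 13.2 to 18.7 CPM at P6 to 0.669, 0.840 and 0.140 CPM. Pbk and Melk, a pair of mitotic kinases, fell by 4.56 ± 0.45 and 3.84 ± 0.54 on the log2 scale, Melk with 0 counts in P30c. Without P30c their log2 fold changes were -4.09 and -3.31.

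The phosphatases and cyclin F fell less evenly. Cdc25c, which activates Cdk1, went from 4.25 to 8.50 CPM at P6 to 0.669, 0.259 and 0 CPM, and its log2 fold change of -4.21 ± 0.60 was -5.47 without P30a and -3.69 without P30c. Cdc25b, which starts that activation, went from 8.86 to 14.5 CPM at P6 to 2.40, 3.62 and 1.19 CPM, so that 19.1% of its P6 level was counted at P30 (23.9% without P30c) and 5.06% of that of Cdc25c (7.60% without P30c). Ccnf, the F-box cyclin that marks proteins for destruction, was low at both ages, with 5.88 to 7.42 CPM and then 0.725, 0.905 and 0.912 CPM. It is the one gene of this group whose P30 libraries differed little, with P30c the highest.

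Both transcription factors of the programme fell. Foxm1 went from 17.5, 25.4, 24.6 and 19.7 CPM to 1.90, 3.23 and 0.842 CPM, a log2 fold change of -3.45 ± 0.35 (-3.104 without P30c). Mybl2, which encodes B-MYB, was the lowest gene of the set per length at P6, with 1.63 to 2.67 CPM, and had 0.725, 0.323 and 0.0701 CPM at P30. Its log2 fold change of -2.54 ± 0.54 (edgeR adjusted p = 0.0031) rested on 13, 5 and 1 counts at P30 and was -3.47 without P30a and -2.09 without P30c.

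The APC/C and its targets divided. Cdc20, the activator of metaphase (chromosome 4, 118432901 to 118437352), went from 22.9, 31.4, 31.9 and 26.9 CPM to 1.34, 3.10 and 0.631 CPM, a log2 fold change of -4.06 ± 0.38, with -4.799 without P30b and -3.69 without P30c. Fzr1, the activator of late mitosis and G1 (chromosome 10, 81366222 to 81378516), stood at 93.1, 102, 100.5 and 87.2 CPM at P6 and at 99.8, 97.3 and 105 CPM at P30. The ages overlapped, the log2 fold change was 0.07 ± 0.09 (edgeR adjusted p = 0.52; 0.04 without P30c), and its sign turned with library totals (-0.11). Of the counts of this pair, Cdc20 made up 22.7% ± 2.003 (SD, n = 4) at P6 and 1.67% ± 1.28 (SD, n = 3) at P30.

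Ube2c, the ubiquitin-conjugating enzyme that works with the APC/C, was among the largest falls, from 32.6, 42.1, 65.8 and 66.8 CPM to 0.948, 1.42 and 0.351 CPM. Cdca3, a gene whose product triggers entry into mitosis and is itself an APC/C target, fell from 20.5 to 37.0 CPM at P6 to 0.669, 0.840 and 0.210 CPM. Espl1, which encodes separase, the protease that cuts cohesin, fell from 9.03 to 18.6 CPM to 1.67, 2.13 and 0.281 CPM. Pttg1, which encodes securin, the inhibitor of separase, did not go with it. Its level was 58.7, 66.6, 70.5 and 84.5 CPM at P6 and 96.7, 98.4 and 55.4 CPM at P30, with P30a and P30b above every P6 library and P30c below them all. The log2 fold change was 0.25 ± 0.20 (edgeR adjusted p = 0.30), and without P30c it was 0.48 with an adjusted p of 0.0211, so that its call depended on that library.

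The Aurora kinases and the chromosomal passenger complex, which corrects chromosome attachment and then marks the site of cleavage, fell in all 5 genes. Birc5 (survivin), a subunit of the complex, went from 23.4, 23.1, 29.1 and 33.1 CPM to 0.781, 0.905 and 0.421 CPM, a log2 fold change of -5.25 ± 0.26 (edgeR adjusted p = 1.0e-06) that was -5.01 without P30c. Cdca8 (borealin) fell by 4.71 ± 0.39 on the log2 scale and Aurkb, the kinase of the complex, by 4.15 ± 0.36; without P30c their log2 fold changes were -4.27 and -3.78. Incenp, the scaffold that holds the 3 together, fell least of the 36 genes, from 9.41, 15.4, 14.5 and 10.8 CPM to 4.13, 4.01 and 2.17 CPM (log2 fold change -1.87 ± 0.27, or -1.63 without P30c), so that 27.5% of its P6 level was counted at P30. Aurka, the kinase of spindle poles, had 15.3 to 22.03 CPM at P6 and 1.62, 1.74 and 1.19 CPM at P30, and its P30 libraries lay closer together than those of Aurkb (0.669, 0.905 and 0.210 CPM).

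All 5 spindle genes fell, with a median log2 fold change of -4.32 (-3.91 without P30c). Hmmr, which binds hyaluronan and spindle microtubules, fell from 32.9, 41.0, 52.4 and 44.7 CPM to 0.837, 0.969 and 0.210 CPM (log2 fold change -5.95 ± 0.33, edgeR adjusted p = 1.8e-06; -5.57 without P30c). Its fall and that of Ccnb1 differed by less than their standard errors, and without P30b that of Ccnb1 was the larger. Ckap2l fell by 4.72 ± 0.43 on the log2 scale, and Ckap2, its relative, by 4.32 ± 0.36. Without P30c their log2 fold changes were -4.28 and -3.91, and without P30b that of Ckap2l was -5.31. Nusap1, which bundles microtubules near chromosomes, had a log2 fold change of -4.28 ± 0.44 (-3.88 without P30c). Tpx2, the activator of Aurora A, went from 14.9 to 21.5 CPM to 1.79, 3.81 and 0.491 CPM, and its log2 fold change of -3.17 ± 0.45 was -3.96 without P30b and -2.73 without P30c.

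The 4 cytokinesis genes fell as well, with a median log2 fold change of -4.16 (-3.68 without P30c). Racgap1, a subunit of centralspindlin, went from 34.4, 51.4, 63.5 and 58.2 CPM to 2.45, 3.49 and 0.421 CPM. Ect2, the exchange factor for RhoA that Racgap1 brings to the midzone, was the lowest of the 4, with 4.25, 5.09, 11.7 and 8.61 CPM at P6 and 1.34, 1.10 and 0.491 CPM at P30 (log2 fold change -2.91 ± 0.46, or -2.61 without P30c). Anln (anillin), a scaffold of the contractile ring, went from 29.9 to 47.7 CPM to 2.23, 4.01 and 0.351 CPM, with a log2 fold change of -4.19 ± 0.48, with -4.89 without P30b and -3.71 without P30c. Prc1, which bundles the midzone microtubules, went from 44.3 to 71.96 CPM to 4.91, 4.46 and 0.421 CPM.

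Of the 7 genes of chromosome structure 6 fell, and the median log2 fold change was -2.93 (-2.49 without P30c). Smc4, one of the condensin ATPases, had 48.1, 48.9, 58.3 and 55.5 CPM at P6 and 8.87, 11.1 and 8.21 CPM at P30 (log2 fold change -2.49 ± 0.14, edgeR adjusted p = 1.9e-06; -2.41 without P30c). Its partner Smc2 had 15.9 to 19.4 CPM and then 2.45, 3.49 and 2.95 CPM (log2 fold change -2.57 ± 0.18, with -2.57 again without P30c). For both, all P30 libraries were far below P6 and P30c was near the others. Smc2 made up 25.03% ± 0.391 of the counts of the pair at P6 and 24.03% ± 2.37 at P30, a difference of -0.998 percentage points that was within the spread (exact permutation p = 0.486).

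The 3 other subunits of condensin I went different ways. Ncaph, its kleisin, fell by 3.69 ± 0.33 and Ncapg, a HEAT-repeat subunit, fell by 2.93 ± 0.49 on the log2 scale. Without P30c their log2 fold changes were -3.34 and -2.49, and without P30b that of Ncapg was -3.59. Ncapd2, the remaining HEAT-repeat subunit (chromosome 6, 125168007 to 125191701), stood at 48.3, 64.9, 53.5 and 38.7 CPM at P6 and at 39.4, 41.4 and 36.1 CPM at P30. The ages overlapped through P6d, and the log2 fold change was -0.40 ± 0.16 with an edgeR adjusted p of 0.057 (-0.35 without P30c). It passed the test without P6d (0.0104), with library totals (0.0181) and without the filter on low counts (0.0372), and over all alternatives the adjusted p ran from 0.0104 to 0.152.

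Top2a, the topoisomerase that untangles sister chromatids, went from 43.7 to 66.7 CPM to 4.798, 5.56 and 0.631 CPM. Mki67, the Ki-67 protein that coats mitotic chromosomes and is used as a marker of cycling cells, went from 33.6, 38.8, 49.5 and 35.3 CPM to 5.97, 8.14 and 1.26 CPM. At P30 13.0% of its P6 level was counted, or 17.9% without P30c, and the corresponding values for Top2a were 6.54% and 9.24%. Mki67 was therefore counted at P30 at a larger share of its P6 level than Hmmr (1.57%), Ccnb1 (1.74%) or Ube2c (1.75%).

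**Figure D2:**
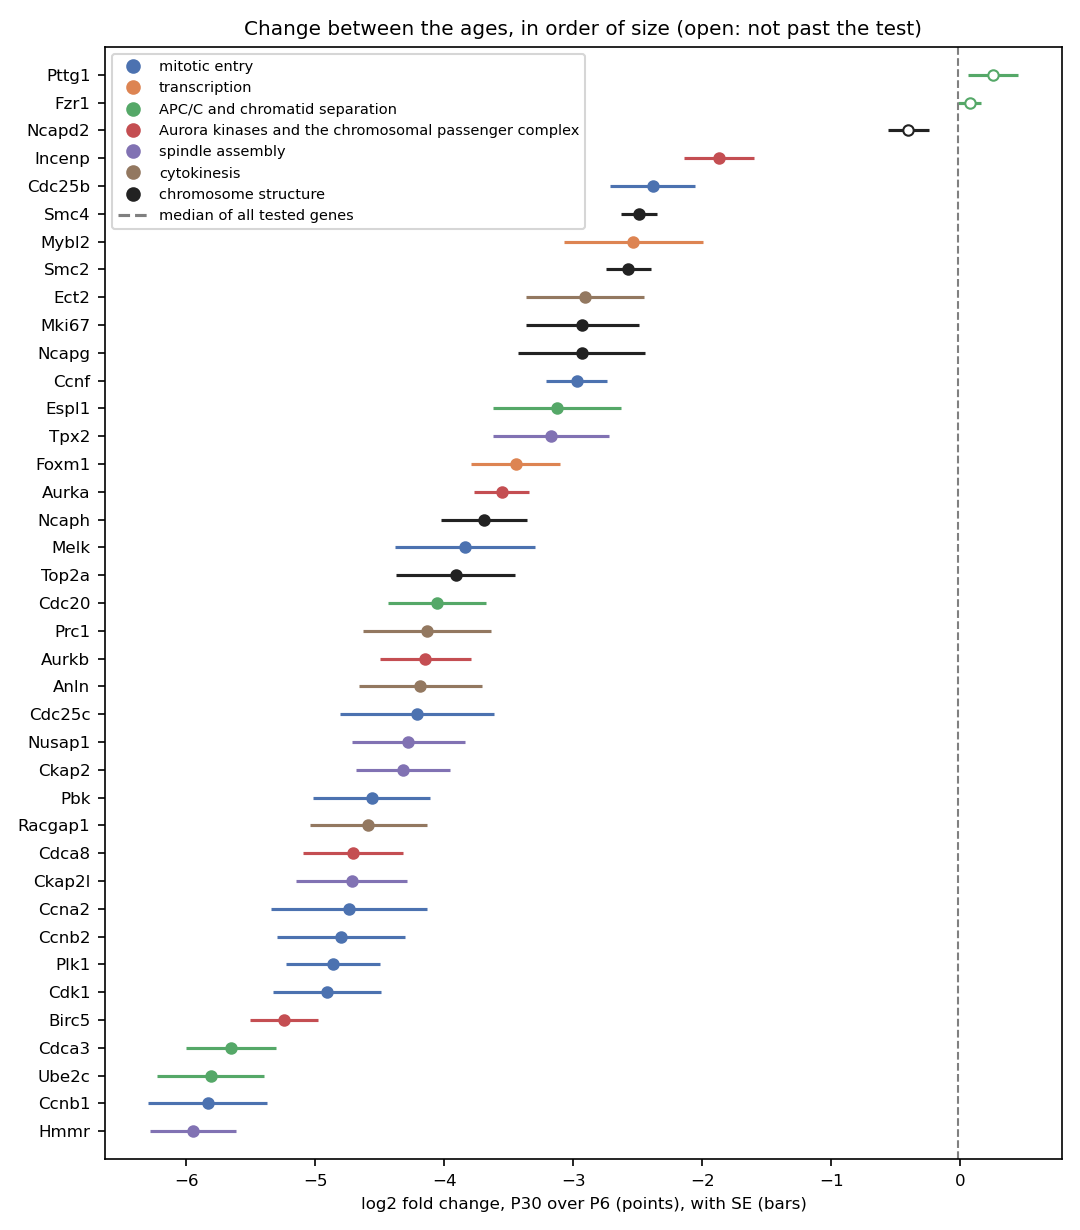
Log2 fold change of each gene (points, P30 over P6) with its standard error (bars), coloured by role and ordered by size; open points did not pass the test and the dashed line is the median of all tested genes (-0.02). The called genes run from -5.95 for Hmmr to -1.87 for Incenp, and Ncapd2, Fzr1 and Pttg1 lie near the dashed line.

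The level still counted at P30, as a percent of P6, ordered the set. It was under 5% for 14 genes, 5% to 10% for 11, 10% to 40% for 11, and 75.9%, 105% and 119% for Ncapd2, Fzr1 and Pttg1. The median was 5.98%, and 8.02% without P30c. The lowest were Hmmr, Ccnb1, Ube2c, Cdca3 and Birc5, and the highest of the called genes were Incenp (27.5%), Cdc25b (19.1%), Smc4 (17.8%), Smc2 (16.8%) and Mybl2 (16.6%, but 8.76% without P30a). These values are means over P30 libraries that differ, and for genes with 0 counts in P30c leaving it out raised the value, from 3.67% to 5.51% for Ccna2, 5.06% to 7.60% for Cdc25c and 6.71% to 10.1% for Melk.

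Levels were compared between genes per kilobase of merged exons (GENCODE mouse release 21). At P6 Pttg1 was highest with 35.05 ± 5.39 CPM per kilobase (SD, n = 4), followed by Ccnb2 (21.9 ± 5.32), Fzr1 (21.3 ± 1.55) and Ube2c (19.9 ± 6.61), the last 3 within their spread of one another. At P30 Pttg1 (41.8 ± 12.2 CPM per kilobase, SD, n = 3) and Fzr1 (22.4 ± 0.882) were again highest, followed by Ncapd2 (6.22 ± 0.423) and Smc4 (1.7997 ± 0.286). The fifth, Cdc20, had 0.905 ± 0.681, a spread that took in most of the genes below it. Ccnb2 went from the second to the seventh place, and Ube2c from the fourth to the seventeenth.

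The P30 libraries differed more for these genes than for most. P30c held less than 25% of the mean of P30a and P30b for 22 of the 39 genes, a margin chosen after the values were seen, against 1.13% of all tested genes and 2.22% of the 4146 tested genes with a P30a and P30b mean of 0.5 to 10 CPM. The median of P30c relative to that mean was 19.7% for the set and 99.9% for all tested genes. In P30c 15 genes had at most 3 counts, and in P30a and P30b none did. The summed level of the 36 called genes in P30c, 26.3 CPM from 375 counts, had an exact 95% Poisson interval of 23.7 to 29.1 CPM, against intervals of 65.8 to 73.6 and 85.1 to 94.6 CPM in P30a and P30b; these intervals cover counting error only. P30b was the highest P30 library for 28 genes.

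By role, the genes under the margin in P30c were all 5 spindle genes, 8 of 10 of mitotic entry, 3 of 4 of cytokinesis, 3 of 7 of chromosome structure, 1 of 2 transcription factors, 1 of 6 of the APC/C group and 1 of 5 of the Aurora group. The roles were not compared by a test. Prc1 was at 8.99% of the other libraries' mean there, Ccnb2 at 4.09% and Top2a at 12.2%. P30c was at 70% or more for 6 genes: Ccnf (112%), Fzr1 (107%), Smc2 (99.1%), Ncapd2 (89.4%), Smc4 (82.4%) and Aurka (70.9%). Beside these values, P30c held 57.8% of the endothelial, 64.4% of the immune, 61.3% of the fibroblast, 86.1% of the mural (59.2% without Abcc9) and 98.1% of the cardiomyocyte marker sum of the other P30 libraries; their part in the difference was not tested.

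**Figure D3:**
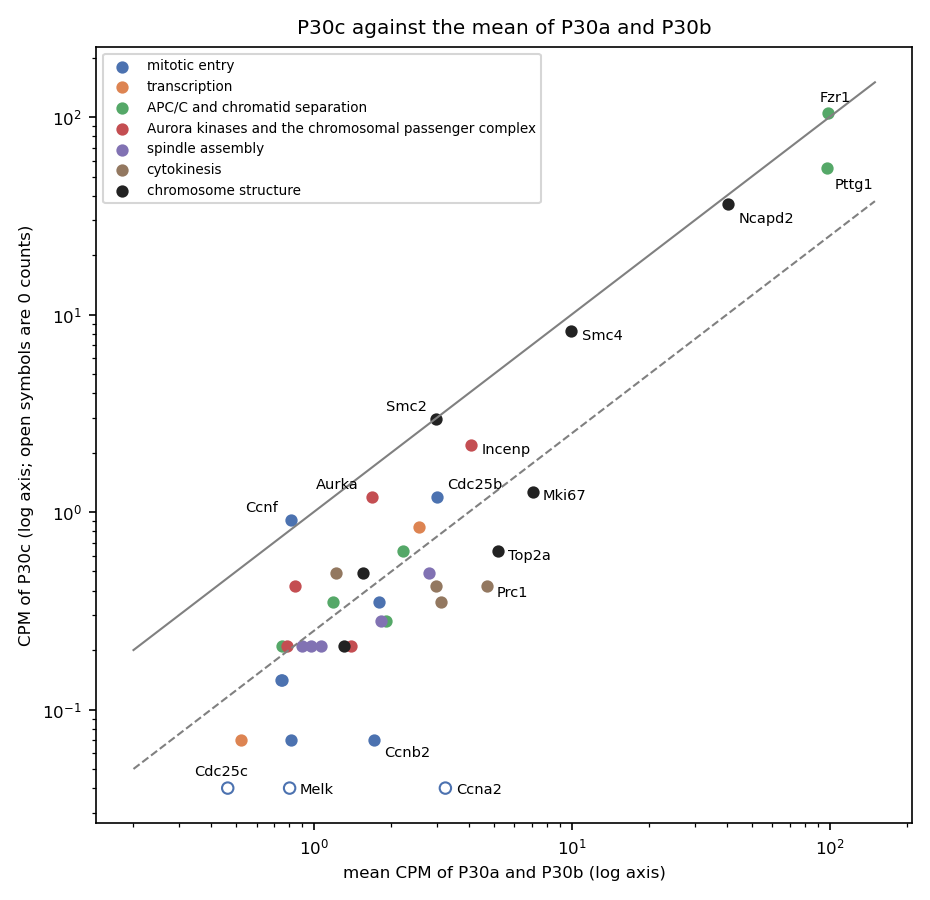
CPM in P30c (vertical) against the mean CPM of P30a and P30b (horizontal) for the 39 genes, both on log axes and coloured by role; the solid line marks equal values, the dashed line 25% of the mean, and open symbols 0 counts in P30c. Smc2, Smc4, Ncapd2, Fzr1, Ccnf and Aurka lie near the solid line, and 22 genes lie under the dashed one.

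At P6 the libraries were ordered too. P6a was lowest for 32 of the 39 genes (23.2% of all tested genes) and P6c highest for 27 (17.7% of all tested genes), and the median ratio of P6c to P6a was 1.47 for the set and 0.983 for all tested genes. Smc2, Smc4, Ccnf and Melk varied little (15.9 to 19.4, 48.1 to 58.3, 5.88 to 7.42 and 6.78 to 8.52 CPM), whereas Ube2c and Ect2 ranged from 32.6 to 66.8 and from 4.25 to 11.7 CPM. Espl1 went against the order, with P6b highest at 18.6 CPM. For the 36 called genes every P6 library still lay above every P30 library, whereas the ages overlapped for Fzr1, Pttg1 and Ncapd2.

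Within 9 pairs of related genes, the share of the first gene in the pair's counts does not depend on how libraries are scaled. In 5 pairs the shares did not overlap between the ages, each with an exact permutation p of 0.0286 (two-sided), the smallest that 35 splits of 7 libraries allow, but none passed after Benjamini-Hochberg adjustment over the 9 pairs (0.0514). With 5 of the 9 pairs at that smallest p, no lower adjusted value was possible, so the adjustment does not weigh the size of a shift. Besides Cdc20 with Fzr1, the pairs without overlap were Aurka with Aurkb, Cdc25b with Cdc25c, Ncaph with Ncaph2 and Ncapd2 with Ncapd3. Aurka made up 62.6% ± 1.63 of its pair at P6 and 70.7%, 65.9% and 85% in P30a to P30c. The 95% Wilson intervals were 55.5% to 82.4%, 50.5% to 78.4% and 64.0% to 94.8%, from 41, 41 and 20 counts. Those of P30a and P30b took in the P6 mean. Cdc25b made up 67.5% ± 4.93 of its pair at P6 and 90.5% ± 11.2 at P30. Its shares in P30a to P30c were 78.2%, 93.3% and 100%, from 55, 60 and 17 counts. The 95% Wilson interval of P30a, 65.6% to 87.1%, took in the P6 mean. Ccnb1 made up 48.0% ± 1.60 of the B cyclin counts at P6 and 19.4%, 37.8% and 66.7% in P30a to P30c, where the pair had only 36, 45 and 3 counts, and the shares overlapped (exact permutation p = 0.60).

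The last pairs set condensin I against condensin II, the complex that stays in the nucleus through the cell cycle. Ncaph made up 12.6% ± 1.55 of its pair with Ncaph2 at P6 and 1.16% ± 0.585 at P30. The level of Ncaph2 was 109 ± 6.66 CPM at P6 and 102 ± 0.878 CPM at P30 (log2 fold change -0.10 ± 0.08, edgeR adjusted p = 0.35), and that of Ncapd3 26.4 ± 6.89 and 25.5 ± 2.89 CPM (-0.05 ± 0.19, adjusted p = 0.83). Ncapg2 fell by 2.33 ± 0.27 on the log2 scale, as its counterpart Ncapg fell, and the share of Ncapg in that pair overlapped between the ages (31.5% ± 6.14 and 21.04% ± 10.9, exact permutation p = 0.20). The share of Ncapd2 in its pair with Ncapd3 went from 66.1% ± 3.89 to 60.5% ± 1.14.

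**Figure D4:**
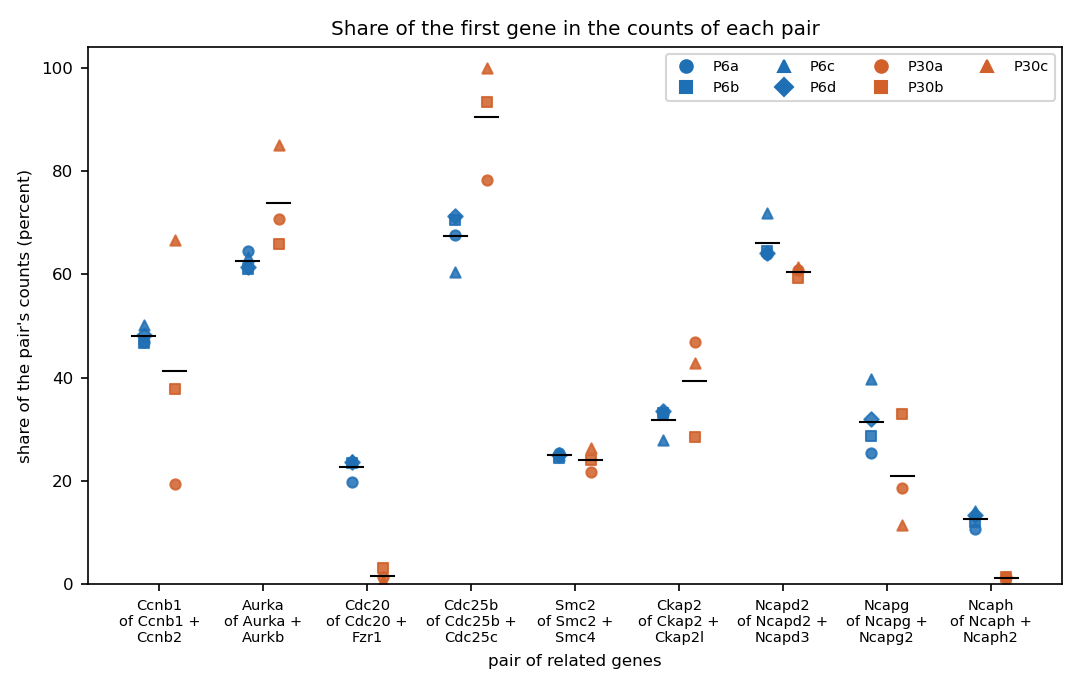
Share of the first gene in the counts of each of 9 pairs, in percent, in each library (blue P6, orange P30) with the mean of each age as a black bar. Cdc20 and Ncaph drop to near 0 at P30, Smc2 stays near 25%, and the P30 shares of Ccnb1 are spread from 19.4% to 66.7%.

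Other genes of the same machinery were taken from lists that are not part of the set. The counts called in these lists stand beside 27.8% lower, 26.3% higher and 54.1% in either direction over all tested genes. They were not tested against those shares. Of 13 APC/C subunits tested, 4 were lower and 2 higher at P30, with a median log2 fold change of -0.10; Anapc1, the largest scaffold subunit, rose by 0.55 ± 0.10 and Cdc23 by 0.32 ± 0.10, while Anapc13, Anapc7 and Anapc11 fell by 1.24 ± 0.22, 0.40 ± 0.08 and 0.97 ± 0.14 on the log2 scale. Of 18 other regulators of entry and exit, 11 were lower and 2 higher, with a median of -0.84. Wee1, the kinase that restrains Cdk1, fell by 1.40 ± 0.28 and Arpp19, an inhibitor of the phosphatase PP2A, by 0.49 ± 0.12, while Ensa, its relative, rose by 0.85 ± 0.08. Mastl, the kinase that activates both inhibitors, fell by 3.65 ± 0.28 (chosen after its value was seen).

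Of 13 cohesin genes tested, 6 were lower and 2 higher (27.8% and 26.3% of all tested genes), with a median of -0.33. The ring subunit Rad21 fell by 0.80 ± 0.11 on the log2 scale, and Pds5a, which binds the ring, rose by 0.97 ± 0.12. Esco2 and Cdca5 (sororin), which secure cohesion in S phase, fell by 4.76 ± 0.59 and 5.16 ± 0.56; they were chosen after their values were seen. Of 18 further cytokinesis and abscission genes, 12 were lower and 2 higher, with a median of -0.66: Rhoa fell by 0.54 ± 0.10, Sept7 by 0.89 ± 0.11 and Sept2 by 1.33 ± 0.11, while Sept9 and Vps4a, an ATPase of abscission, rose by 0.87 ± 0.19 and 0.36 ± 0.08.

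Of 14 genes of the MuvB and DREAM complexes and their partners, 7 were lower and 3 higher, with a median of -0.42. Over all tested genes 27.8% were lower and 26.3% higher. Rbl2 (p130), the pocket protein of DREAM in resting cells, rose by 0.76 ± 0.12 on the log2 scale, as did E2f4 by 0.35 ± 0.10 and Lin37 by 0.71 ± 0.15. Rbbp4 fell by 0.87 ± 0.10, and Nfyc and Nfyb, subunits of NF-Y, by 0.66 ± 0.11 and 0.80 ± 0.12. Rbl1 (p107), chosen after its value was seen, fell by 3.25 ± 0.27. Lin9, Lin54 and Mybl1 fell by 1.31 ± 0.19, 0.68 ± 0.13 and 3.08 ± 0.66, and were also chosen after their values were seen. All genes tested of DNA replication (18), of the kinetochore and checkpoint (12) and of mitotic kinesins (10) were lower, with medians of -2.05, -2.85 and -3.43, against -4.06 for the 39 genes; the differences between these lists were not tested. P30c lay under the 25% margin for 2 of the 18, 2 of the 12 and 3 of the 10. Relative to the mean of P30a and P30b, the median of P30c was 85.2%, 66.4% and 37.6% for these lists. It was 19.7% for the 39 genes and 99.9% for all tested genes, so low values in P30c were not confined to the set.

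**Figure D5:**
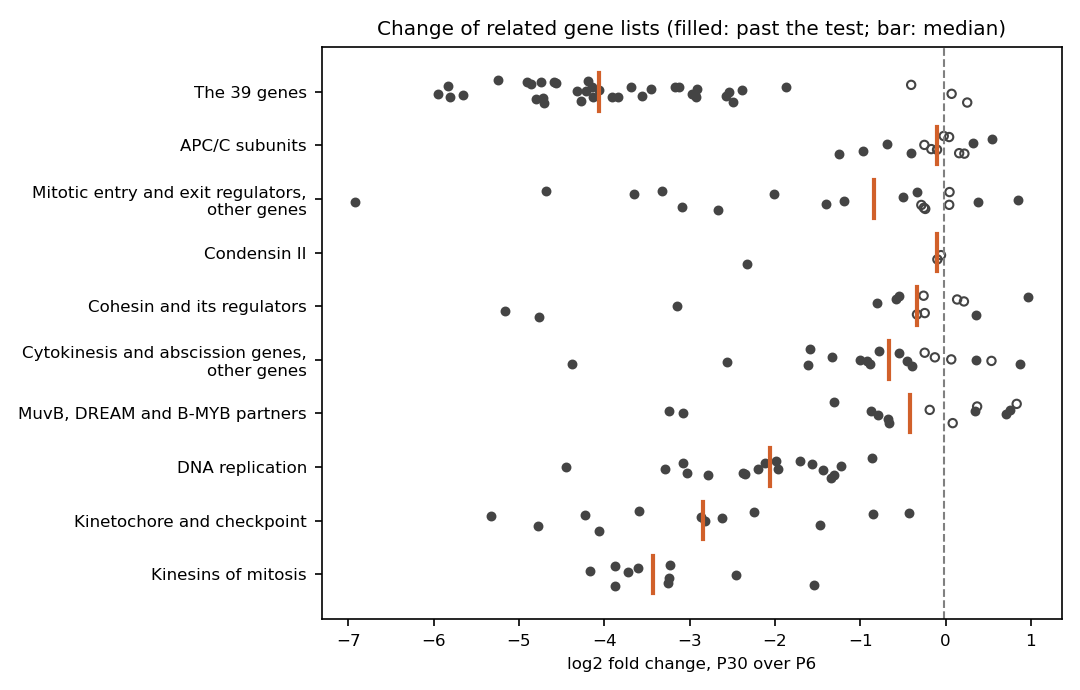
Log2 fold change (P30 over P6) of the 39 genes and of 9 related lists; filled points passed the test, open points did not, orange bars are medians and the dashed line is the median of all tested genes. Of 13 APC/C subunits 7 are open points, as are 2 of 3 condensin II genes, and the 36 called genes, kinesins, kinetochore and replication genes lie to its left.

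The strand setting of the counting is not given, so counts of genes whose exons overlap others on the opposite strand are uncertain. This concerns Ube2c with Tnnc2 (22.8% of its exon length), Ncapg with Lcorl (13.4%), Ccna2 with Exosc9 (12.5%), Cdc25c with Gm3550 (12.7%) and Prc1 with Rccd1 (11.1%), and in smaller part Plk1, Ckap2l, Cdca8, Nusap1, Cdc20 and Cdc25b. Fzr1 shared 0.089% of its exon length with Mfsd12, Ncapd2 shared 3.78% with a small RNA listed at 0 counts, and Pttg1 shared none. Foxm1 shared 2.503% with Tex52 and Top2a 1.35% with a small RNA, both on their own strand.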

How the data were processed

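The authors deposited unnormalized read counts for each gene. The submitters' processing notes name CASAVA 1.8, STAR 2.5.3a, Subread 1.5.2 (featureCounts) and the build mm10. Annotation, strand setting and multi-mapping were not given in the sources used here. The age in each column's name gave its group; the letters after it match no title number. The authors' own comparison table was not used.

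Counts were tested with edgeR 4.0.16 under R 4.3.3 (TMM factors, filterByExpr with age as group, quasi-likelihood fit of age, Benjamini-Hochberg over 12561 genes, threshold 0.05). Log2 fold changes are P30 over P6, the SE was taken from the fold change and the F statistic, CPM used TMM-scaled library sizes, and groups are given as mean ± SD. Depth ran from 10594932 to 51427646 counts. No library duplicated another of its age (lowest chi-square per gene 12.3, against about 1 for sampling noise). Tested on simulated data made from these libraries (3 simulations of 12561 genes, 200 of them changed), the procedure found 72.0% of genes changed 2-fold and 95.3% of those changed 4-fold, with 4.37% of calls false. In these simulations rises equalled falls in number, and genes of like level had the same spread. Far fewer genes changed than the 54.1% called here, so the share of false calls in the real data was not tested. Shares within pairs came from raw counts and were compared by an exact permutation test over 35 splits.

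The 39 genes, the lists and the alternatives (DESeq2 1.42.0, other scalings, no filter, each library left out) were chosen with earlier results of these data known. Named genes are all 39, and from each other list up to 3 past the threshold in each direction with the most counts; Ncaph2 and Ncapd3 are named as partners in the pairs, and any other gene is marked in the text as chosen with its value known. Gene positions, exon lengths and overlaps came from GENCODE (GRCm38), promoters from RefSeq.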

Additional observations from a re-analysis of the deposited data

Results flagged for a closer look

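In groups of 4 libraries a value far from the others is flagged by Dixon's criterion, which chance meets in about 1 of 20 groups; only P6 has 4 libraries, so 48 groups of P6 values (39 genes and 9 pairs) were checked, of which 4 were flagged. Melk had 6.78 CPM in P6a, apart from 8.31 to 8.52 CPM in the other P6 libraries. The share of Cdc20 in its pair with Fzr1 was 19.7% in P6a and 23.5% to 24.1% in the others. The share of Ckap2 in its pair with Ckap2l was 27.9% in P6c and 33.0% to 33.5% in the others, and that of Ncapd2 in its pair with Ncapd3 was 71.9% in P6c and 63.9% to 64.4% in the others.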

How the results depend on the processing

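The number of the 39 genes called lower was 36 or 37 under every alternative, 36 to 37 with 1 library left out, and the number called higher 0 to 1 with 1 library left out: Pttg1 was called without P30c. Over all genes, 3399 to 4658 were lower and 2408 to 3831 higher under other scalings, tools or filters, and 2885 to 3577 and 2788 to 3460 with 1 library left out. With library totals 65.9% of calls were lower, against 51.3% with TMM factors, and the log2 fold change of Fzr1 was -0.112 in place of 0.07. The P30 minus P6 difference in the share of Ccnb1 was -6.72 percentage points and turned to 4.20 without P30a (range -19.4 to 4.20 with 1 library left out), and that of Smc2 was -0.998 and turned to 0.179 (range -2.19 to 0.179). With 1 library left out the smallest p a share can reach is 0.0667 or 0.10, so these p-values say nothing of stability. No paired analysis was possible because the count columns carry letters and not the replicate numbers of the titles; that fit was not run. At P30, 15 of the 39 genes had at most 3 counts in P30c, which limits values within that library.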
